A study of Rattus norvegicus with 6 samples.

Results

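The Krüppel-like factors (KLFs) examined here were 10 genes, Klf2, Klf3, Klf4, Klf5, Klf6, Klf7, Klf9, Klf10, Klf13 and Klf15, taken by symbol. No rule on their level or response was used, but the list was chosen with earlier results of these data known. Counts over the 10 genes are therefore a description only. All 10 had a probe set with values, among 13949 genes measured in all. RNA came from primary oligodendrocyte progenitor cells (OPCs), which divide and later become myelinating cells, taken from rat pups at postnatal day 1 to 2 and kept for 2 days in a medium that supports their division (DMEM, N2, B27, antibiotics, NT3 and PDGF). One group of 3 samples was then given fibrinogen, the clotting protein of blood plasma, for 12 h, and the other group of 3 samples was left unstimulated. Strain, sex and the dose of fibrinogen were not given in the sources used here, and no label describes the replicates as separate cultures. P-values therefore reflect the spread among these particular samples alone, and that spread may be technical. Each value is a log2 level, so that a difference of 1 is a doubling of signal.

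KLFs are transcription factors that share a block of zinc fingers at their C-terminal end and bind GC-rich and CACCC sequences in promoters and enhancers, a target that they share with the related Sp factors. They differ in the rest of the protein, which recruits coactivators in some members and corepressors in others. Several act early after a stimulus, and several are tied to the oligodendrocyte lineage: KLF6 is needed for its survival and for myelination in mouse and zebrafish, and KLF9 and KLF13 promote myelin gene expression in differentiating rat oligodendrocytes.

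One fibrinogen array stood apart. The spread of gene levels around the mean of the group, as an SD over all genes, was 0.146 on fibrinogen 2, against 0.114 and 0.110 on fibrinogen 1 and 3 and 0.0862 to 0.0939 on the control arrays, and KLF values that rest on it are given with and without it. The label of the cells was checked with 6 measured OPC markers, whose mean log2 level was 10.82, 10.72 and 10.88 on the fibrinogen arrays and 11.05, 11.08 and 11.06 on the control arrays. These are high levels beside background, for which 956 olfactory and vomeronasal receptor genes gave a 95th percentile of 5.51. Of the OPC markers, 3 of 6 were lower on every fibrinogen array than on any control array, as were 10.6% of all genes. The 5 measured astrocyte markers had mean levels of 8.36, 8.29 and 8.43 with fibrinogen and 7.92, 7.99 and 7.92 in controls, and 3 of 5 were higher without overlap, as were 10.7% of all genes. Their log2 levels summed to 41.44 to 42.17 with fibrinogen and 39.59 to 39.93 in controls, the same means on another scale. The 5 measured markers of mature oligodendrocytes averaged 8.37 to 8.47 with fibrinogen and 8.47 to 8.51 in controls, and 1 of them was lower without overlap. The 6 microglia markers averaged 5.40 to 5.47 with fibrinogen and 5.41 to 5.49 in controls, with 3 genes above the receptor percentile. The 4 endothelial markers averaged 4.95 to 4.97 with fibrinogen and 4.89 to 4.93 in controls, with 1 above it, and the 5 pericyte and fibroblast markers 5.67 to 5.84 with fibrinogen and 5.77 to 5.82 in controls, with 3 above it. Of these 3 lists, 0 genes were separated between the groups. The part of any of these cell types in the KLF values was not tested. In bulk RNA, a different number of cells of a type and a different amount of RNA per cell cannot be told apart. With 3 arrays a group, precision was limited by their number.

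Of the 10 KLF genes 1 rose with fibrinogen, Klf4, and 0 fell (limma, Benjamini-Hochberg adjusted p under 0.05 over all genes). Over all genes tested, 1.81% rose by this rule and 1.29% fell, 3.1% in all. At an unadjusted p under 0.05, 4 KLF genes were higher and 0 lower, against 8.12% higher and 7.46% lower over all genes. On 6 of the 10, Klf2, Klf4, Klf5, Klf7, Klf10 and Klf13, every fibrinogen array lay above every control array, whereas 10.7% of all genes were separated in that direction (12.9% of those above the receptor percentile). In the opposite direction 0 KLF genes were separated, against 10.6% of all genes. The log2 change was above 0 for 9 of the 10 and for 49.6% of all genes. Its median was 0.26 over the 10 genes and -0.0033 over all 13949, but 0.13 over the 10 without fibrinogen 2. All 10 had mean levels above the receptor percentile.

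**Figure D1:**
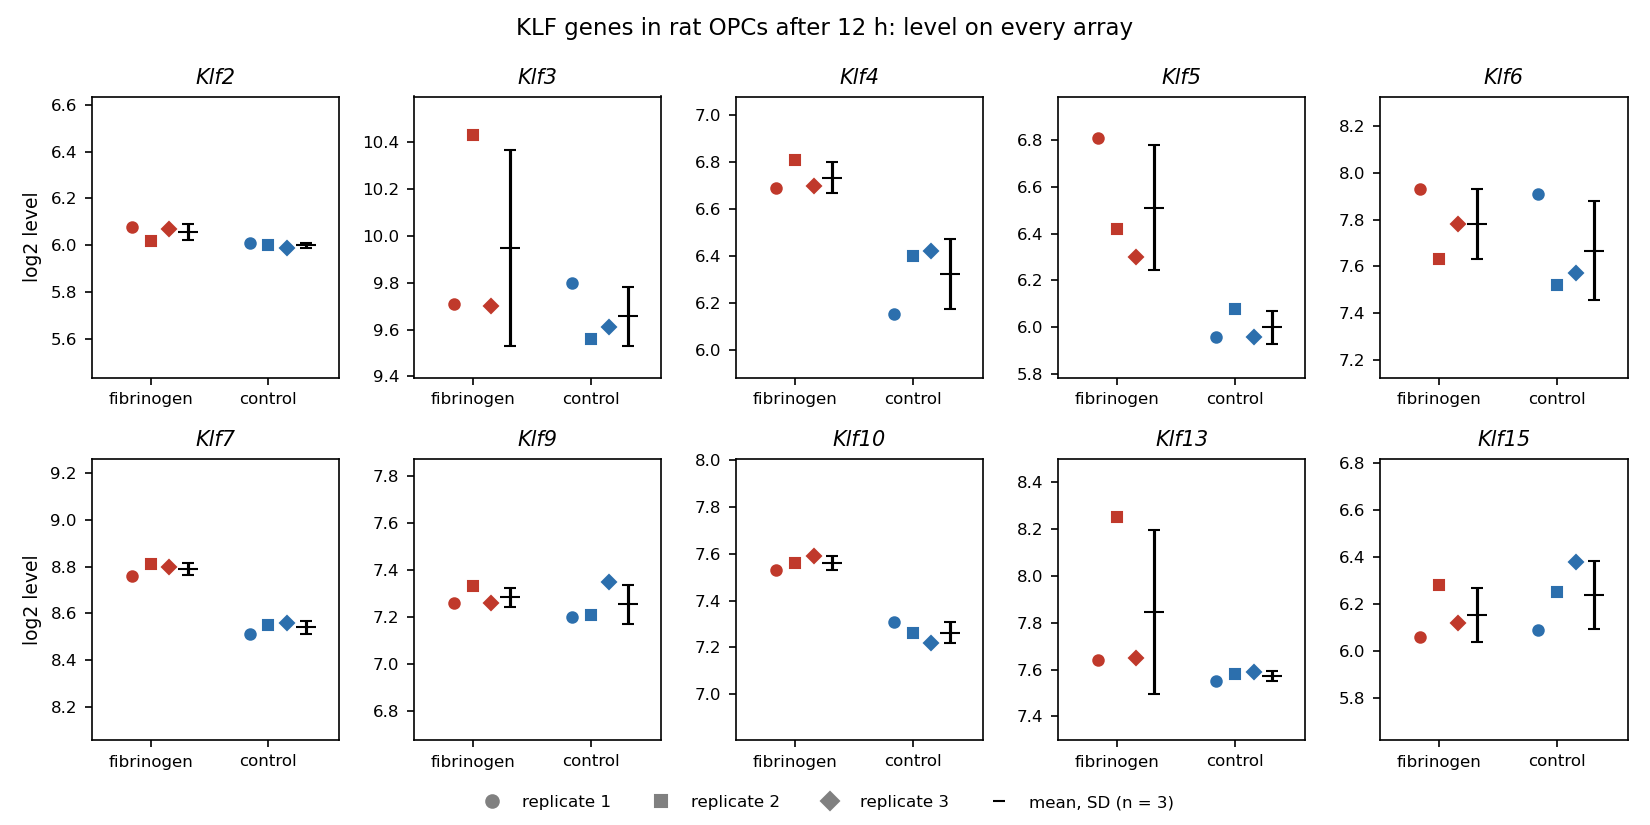
Log2 level of each of the 10 KLF genes on every array, with fibrinogen arrays in red on the left of each panel and control arrays in blue on the right, and the symbol shape giving the replicate number. Short black lines with bars are the group mean and SD (n = 3 each), and every panel spans the same log2 range. Klf4, Klf5, Klf7 and Klf10 are separated between groups by at least 0.20, and fibrinogen 2 alone is high for Klf3 and Klf13.

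Klf4, a factor best known for its part in pluripotency and in the growth arrest of epithelial cells, had log2 levels of 6.69, 6.81 and 6.70 with fibrinogen, against 6.15, 6.40 and 6.42 in controls. The lowest fibrinogen array thus lay 0.27 above the highest control array. The means were 6.73 ± 0.07 and 6.32 ± 0.15 (SD, n = 3 each), a 1.33-fold rise, with a log2 change of 0.41 ± 0.09 (SE), a 95% interval of 0.20 to 0.62 and an adjusted p of 0.0496 (limma). This call lay at the threshold: it ended after median centring (adjusted p = 0.0656) and without any 1 array, with adjusted p-values of 0.107, 0.0965 and 0.109 without fibrinogen 1, 2 and 3 and 0.151, 0.124 and 0.106 without control 1, 2 and 3. A second Klf4 probe set, at 5.60, 4.48 and 4.78 with fibrinogen and 4.73, 5.18 and 4.97 in controls, showed no such separation, and the mean of both sets gave a log2 change of 0.20 (adjusted p = 0.564, limma). The mean level of that second set, 4.96, lay below the receptor percentile.

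Klf10, known as an early gene induced by TGF-beta, was the next nearest to the threshold. Its log2 levels were 7.53, 7.56 and 7.59 with fibrinogen and 7.31, 7.26 and 7.22 in controls, so that the groups lay 0.22 apart, each with an SD of at most 0.05. The log2 change of 0.30 ± 0.07 (SE), with a 95% interval of 0.15 to 0.45, did not pass over all genes (adjusted p = 0.0541, limma), although it passed when dim genes were left out (adjusted p = 0.0280 above the receptor percentile). Leaving out 1 array kept the difference between 0.28 and 0.32.

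Klf5, which drives proliferation in gut epithelium and smooth muscle, had the largest difference of the 10 genes. Levels were 6.81, 6.42 and 6.30 on the fibrinogen arrays and 5.96, 6.08 and 5.96 on the control arrays, a 1.42-fold difference. The fibrinogen arrays spread widely, with fibrinogen 1 highest, and the log2 change of 0.51 ± 0.13 (SE; 95% interval 0.23 to 0.79) did not pass (adjusted p = 0.0734, limma). It was 0.36 without fibrinogen 1 and 0.62 without fibrinogen 3. The second Klf5 probe set, which was dimmer, read 5.85, 5.82 and 5.47 with fibrinogen and 5.64, 5.31 and 5.39 in controls. Its groups overlapped, and its difference in means was 0.27.

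Klf7, a regulator of axon growth in neurons, differed by less but with even replicates. Its levels were 8.76, 8.81 and 8.80 with fibrinogen and 8.51, 8.55 and 8.56 in controls, a separation of 0.20 between groups whose SD was 0.03 each. The log2 change was 0.25 ± 0.06 (SE; 95% interval 0.10 to 0.40), with an adjusted p of 0.0860 that did not pass (limma), and it stayed between 0.23 and 0.27 when any 1 array was left out. In a fit to genes above the receptor percentile, Klf4, Klf5, Klf7 and Klf10 all passed, Klf5 and Klf7 with adjusted p-values of 0.0487 and 0.0463 (limma). In that fit 595 of 9949 genes passed in all, against 432 of 13949 without the filter.

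Klf3 and Klf13 had mean differences of the same size as Klf10 and Klf7, but these rested on 1 array. Klf3, a repressor that recruits the corepressor CtBP, had log2 levels of 9.71, 10.43 and 9.70 with fibrinogen and 9.80, 9.56 and 9.61 in controls. Only fibrinogen 2 was high, by 0.73 over the mean of the other two fibrinogen arrays, and the groups overlapped. Klf13, a close relative of Klf9, had levels of 7.64, 8.25 and 7.65 with fibrinogen and 7.55, 7.58 and 7.59 in controls. Again fibrinogen 2 alone was high, by 0.61, while the remaining fibrinogen arrays lay just above the controls.

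The log2 changes of 0.29 ± 0.18 for Klf3 and 0.27 ± 0.15 for Klf13 (SE) did not pass (adjusted p = 0.509 and 0.441, limma), and without fibrinogen 2 they were 0.05 and 0.07 (adjusted p = 0.833 and 0.593). A level at least 0.5 above the mean of the other two fibrinogen arrays was found on fibrinogen 2 for 1.23% of all genes and for these 2 of the 10 KLF genes, on fibrinogen 1 for 0.38% and on fibrinogen 3 for 0.452% of all genes. The 6 measured neuron markers were also read on that array. Against the mean of the other two fibrinogen arrays, fibrinogen 2 was higher for Syt1 by 0.975, Snap25 by 0.43 and Rbfox3 by 0.425, while the differences of Tubb3, Stmn2 and Gad1 were -0.205, -0.26 and -0.195. The list averaged 7.48, 7.70 and 7.52 on the fibrinogen arrays and 7.51, 7.51 and 7.48 on the control arrays. The log2 levels summed to 44.86 to 46.17 with fibrinogen and 44.89 to 45.07 in controls, the same means on another scale. Of the 6 markers, 5 lay above the receptor percentile, all but Gad1. Their part in the Klf3 and Klf13 values was not tested.

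**Figure D2:**
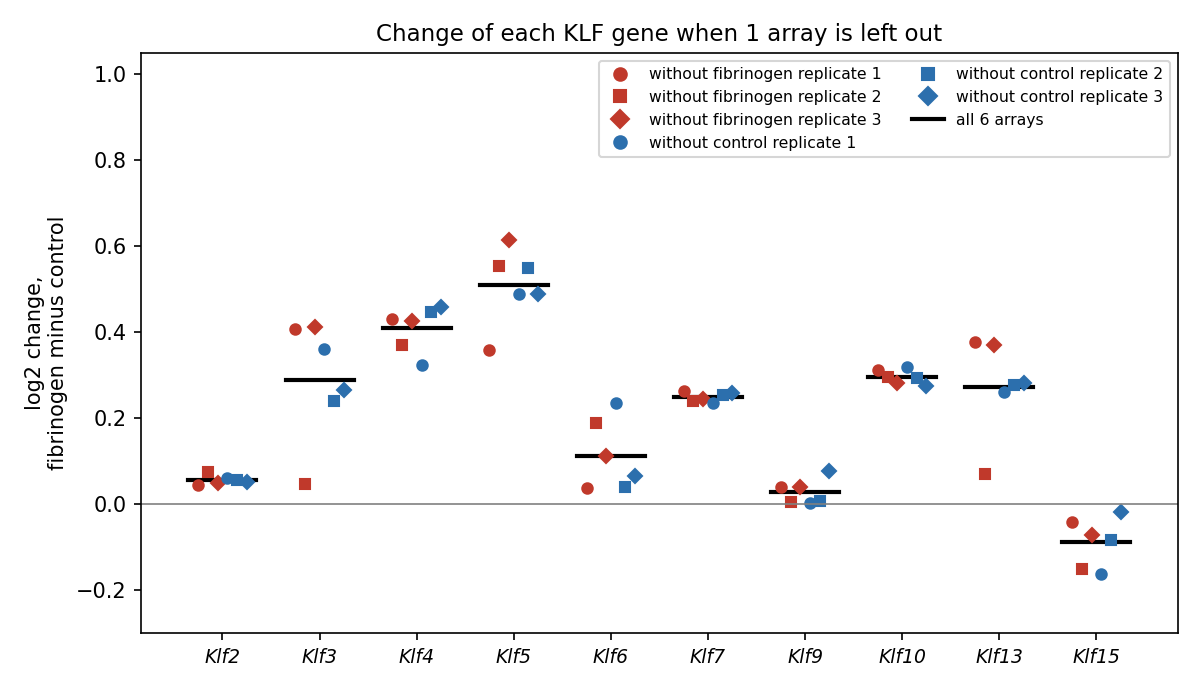
Log2 change of each KLF gene, fibrinogen minus control, from the fit to all 6 arrays (black lines) and from fits that leave out 1 array (red symbols for a fibrinogen array left out, blue for a control array). Without fibrinogen 2 (red squares) Klf3 and Klf13 come down to 0.05 and 0.07, while Klf7 and Klf10 hardly move.

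Klf6, the member with an established need in myelinating cells, had levels of 7.93, 7.63 and 7.78 with fibrinogen and 7.91, 7.52 and 7.57 in controls. Replicate 1 was the highest of both groups, which overlapped, and the log2 change of 0.11 ± 0.12 (SE) did not pass (95% interval -0.16 to 0.39, adjusted p = 0.726, limma). It was 0.19 without fibrinogen 2, and ran from 0.038 without fibrinogen 1 to 0.24 without control 1. Klf9, which thyroid hormone and glucocorticoids induce, had 7.26, 7.33 and 7.26 with fibrinogen and 7.20, 7.21 and 7.35 in controls. Its log2 change was 0.03 ± 0.07 (SE), with a 95% interval of -0.14 to 0.20, and did not pass (adjusted p = 0.900, limma). It was 0.0067 without fibrinogen 2 and at most 0.078 when any 1 array was left out.

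Klf2, which keeps vascular endothelium and naive T cells quiescent, had 6.08, 6.02 and 6.07 with fibrinogen and 6.01, 6.0 and 5.99 in controls. The groups were separated by 0.01, the last digit of the deposited values, and the log2 change of 0.06 ± 0.06 (SE) did not pass (95% interval -0.09 to 0.20, adjusted p = 0.752, limma). Klf15, a glucocorticoid-induced regulator of amino acid and glucose metabolism in liver and muscle, was the 1 member with a negative difference. Its levels of 6.06, 6.28 and 6.12 with fibrinogen and 6.09, 6.25 and 6.38 in controls overlapped, and the log2 change of -0.09 ± 0.10 (SE) did not pass (95% interval -0.30 to 0.13, adjusted p = 0.742, limma). It was -0.15 without fibrinogen 2, and ran from -0.16 without control 1 to -0.017 without control 3.

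Of the 10 genes, 7 had a promoter window in RefSeq's table for assembly GRCr8, from which the 250 bases before the annotated start were searched for the core of the KLF site, CACCC, and for its reverse complement, GGGTG. It was present in 5 of the 7 windows, those of Klf3, Klf5, Klf7, Klf9 and Klf15, and in 49.2% of the 33469 windows in the table. The windows of Klf4, the 1 member that rose, and of Klf6 held 0 matches. Klf2, Klf10 and Klf13 had no window in the table. The GC box, searched as GGGCGGG and, for the other strand, as CCCGCCC, was found in 0 of the 7 and in 21% of all windows. Both motifs were chosen with the promoter sequences in view, so these shares are a description only. Of the motif's matches, 4 lay in Klf3, 2 each in Klf5 and Klf7, and 1 each in Klf9 and Klf15, so the count did not follow the order of the log2 changes. The windows of Klf5 and Klf7, whose groups were separated, are shown beside those of Klf3, high on 1 array, and Klf9, with a difference near 0. Each runs 5′ to 3′ on the gene's own strand and ends at the base before the start, with matches to the motif or its reverse in capitals. Their positions are chr15:82471831-82472080 (plus strand) for Klf5, chr9:73020057-73020306 (minus strand) for Klf7, chr14:43850827-43851076 (minus strand) for Klf3 and chr1:230126396-230126645 (plus strand) for Klf9. A match is a description of these letters and no evidence that a factor binds there.
Klf5: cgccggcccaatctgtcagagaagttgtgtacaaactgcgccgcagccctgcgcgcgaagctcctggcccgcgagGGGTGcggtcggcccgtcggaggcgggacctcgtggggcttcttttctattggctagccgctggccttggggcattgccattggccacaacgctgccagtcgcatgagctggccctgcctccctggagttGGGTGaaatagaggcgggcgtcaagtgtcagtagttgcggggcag
Klf7: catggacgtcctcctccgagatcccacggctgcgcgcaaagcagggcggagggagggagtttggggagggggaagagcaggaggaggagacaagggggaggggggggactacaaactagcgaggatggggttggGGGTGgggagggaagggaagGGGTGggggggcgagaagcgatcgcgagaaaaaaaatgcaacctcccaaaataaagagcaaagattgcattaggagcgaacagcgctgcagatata
Klf3: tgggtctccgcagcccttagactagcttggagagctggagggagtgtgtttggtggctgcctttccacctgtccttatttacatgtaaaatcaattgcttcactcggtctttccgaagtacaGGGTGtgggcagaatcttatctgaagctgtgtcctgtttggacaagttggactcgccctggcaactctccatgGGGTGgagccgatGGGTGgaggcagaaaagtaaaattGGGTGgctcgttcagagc
Klf9: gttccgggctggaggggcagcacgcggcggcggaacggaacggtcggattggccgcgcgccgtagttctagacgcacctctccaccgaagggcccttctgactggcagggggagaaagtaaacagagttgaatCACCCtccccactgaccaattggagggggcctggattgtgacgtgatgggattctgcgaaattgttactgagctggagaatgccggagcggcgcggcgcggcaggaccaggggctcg

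The rest of the family was measured at 10 of 17 further KLF and Sp genes, and 0 of these passed in either direction (limma). Without adjustment, 2 of them had a p under 0.05 with a positive and 1 with a negative difference (limma), against 8.12% and 7.46% of all genes. Every fibrinogen array lay above every control array for 3 of them, Klf1, Sp6 and Klf16, the last by 0.01. The reverse held for 1, and the shares over all genes were 10.7% and 10.6%. The median log2 change of these 10 genes was 0.07. The largest differences were those of Sp6, an Sp factor of tooth and skin, at 6.11, 6.35 and 6.11 with fibrinogen and 6.04, 5.76 and 5.95 in controls, and Klf1, the erythroid member, at 6.28, 6.33 and 6.27 with fibrinogen and 6.04, 5.95 and 6.10 in controls. Both groups were separated, with log2 changes of 0.27 ± 0.10 for Sp6 and 0.26 ± 0.07 for Klf1 (SE). Their adjusted p-values were 0.225 and 0.0981 (limma), above the threshold. Sp1, the broadly expressed factor that competes for the same GC-rich sites, was picked out once its values were known. It had 9.28, 9.23 and 9.16 with fibrinogen and 9.49, 9.35 and 9.60 in controls, the 1 gene of this list with every fibrinogen array below every control array (log2 change -0.26 ± 0.08, SE; adjusted p = 0.167, limma).

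**Figure D3:**
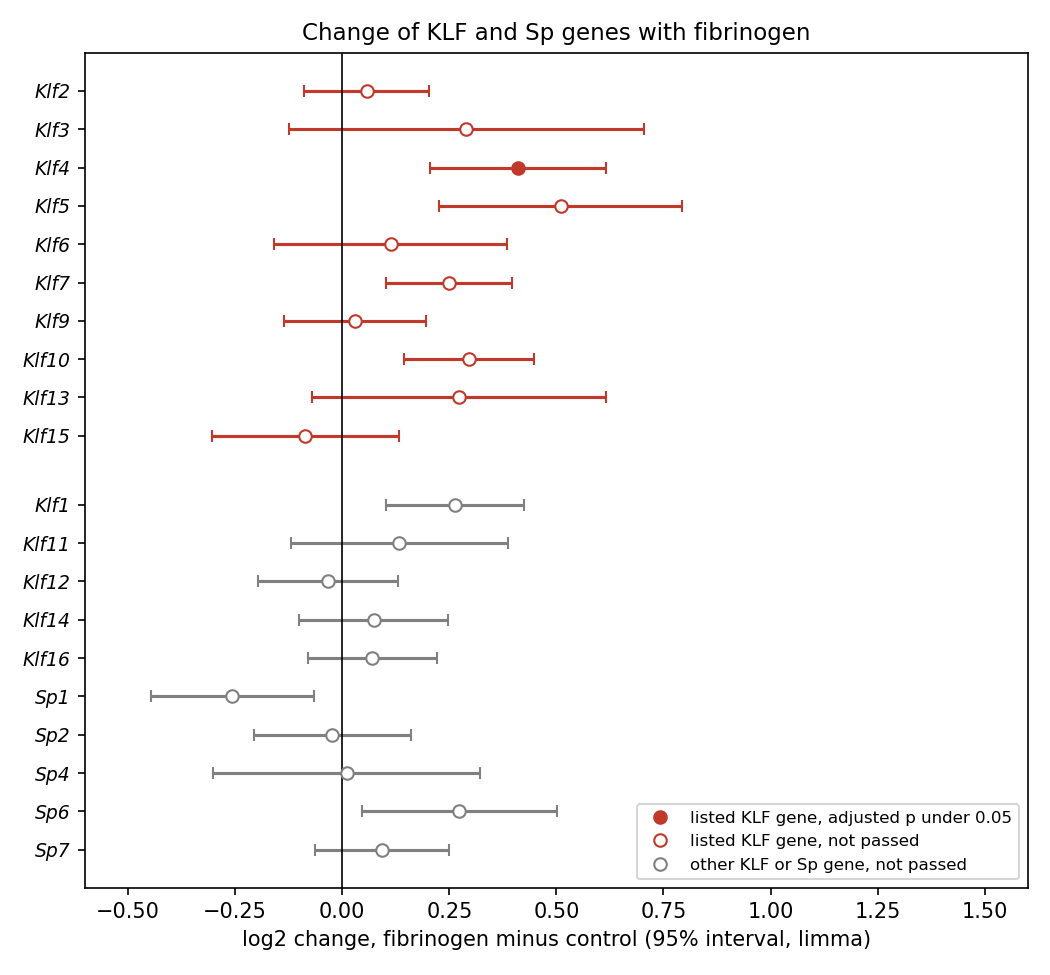
Log2 change, fibrinogen minus control, of the 10 KLF genes in red and of 10 further KLF and Sp genes in grey, with 95% intervals from limma, where a filled symbol marks an adjusted p under 0.05 over all genes. Klf4 alone is filled, and the intervals of Klf5, Klf7, Klf10, Klf1 and Sp6 lie above 0 and that of Sp1 below it.

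Genes that act with or upstream of the KLFs were read from the same fit. Of 9 measured corepressors, coactivators and ubiquitin ligases that bind KLF proteins, 0 passed and 0 reached an unadjusted p under 0.05 (limma), with a median log2 change of 0.05. Ctbp2, a corepressor bound by KLF3, had a log2 change of 0.11 (adjusted p = 0.644) and the acetyltransferase gene Crebbp of 0.06 (adjusted p = 0.845, limma). Without fibrinogen 2 they were 0.023 for Ctbp2 and -0.048 for Crebbp. Of 5 measured genes of the ERK5 and MEF2 route, which induces Klf2 and Klf4 in endothelium, 0 passed and 0 reached an unadjusted p under 0.05 (median -0.05). The kinase gene Map2k5 had a log2 change of -0.17 ± 0.12 and the transcription factor gene Mef2d of 0.15 ± 0.08 (SE), with adjusted p-values of 0.574 and 0.437 (limma). Without fibrinogen 2 the change of Map2k5 was -0.027.

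The gp130 and STAT3 route lies upstream of KLF6 in mouse oligodendrocytes. Of its 9 measured genes, 2 rose and 0 fell, against 1.81% and 1.29% of all genes. The median log2 change was 0.24. All 9 changes were above 0, as were 49.6% of all genes, and 7 of the 9 genes were separated upward, against 10.7%. Socs3 and Kpna1 overlapped between the groups, with log2 changes of 0.35 and 0.03 (adjusted p = 0.408 and 0.902, limma). Levels of Socs3 were 8.77, 7.95 and 8.59 with fibrinogen and 8.11, 8.14 and 8.0 in controls, so fibrinogen 2 lay below every control array. Cntfr, the receptor subunit for ciliary neurotrophic factor, rose by 0.69 ± 0.07 (SE), with levels of 9.55, 9.66 and 9.62 with fibrinogen and 8.90, 8.95 and 8.90 in controls (adjusted p = 0.00163, limma). Lifr, the receptor subunit for leukemia inhibitory factor, rose by 0.55 ± 0.09 (SE; adjusted p = 0.0193), a call that ended without control 1, 2 or 3 (adjusted p = 0.0743, 0.0846 and 0.0905). Without fibrinogen 2, 3 genes of the list rose, and without control 1, 2 or 3 only 1 did. Klf6 itself, the member downstream of this route, did not pass. Of the astrocyte markers given above, Gfap, Slc1a2 and Slc1a3 were higher on the same arrays, with log2 changes of 1.24, 0.65 and 0.23. That of Slc1a3 did not pass (adjusted p = 0.294, limma). Aqp4 and Gja1 overlapped between the groups, with log2 changes of 0.01 and -0.037. The part of astrocyte markers was not tested.

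Of 12 measured genes of the glucocorticoid receptor and its targets, 1 rose and 0 fell, with a median log2 change of 0.07: the metallothionein gene Mt2A, which metals and stress also induce, by 0.58 ± 0.08 (SE; adjusted p = 0.00752, limma). Over all genes, 1.81% rose and 1.29% fell. At an unadjusted p under 0.05 (limma), 2 genes of the list were higher and 2 lower, against 8.12% and 7.46% of all genes. The lower ones were Sgk1 and Zbtb16, with log2 changes of -0.33 and -0.30 (adjusted p = 0.309 and 0.167, limma). With array weights, or without fibrinogen 1 or 2, 1 gene of this list also fell. Of 7 measured genes of thyroid hormone receptors, transport and targets, 1 rose and 1 fell (median 0.05). Rxra, the receptor partner, rose by 0.39 ± 0.08 and Thrb, a thyroid hormone receptor, fell by 0.47 ± 0.10 (SE), with adjusted p-values of 0.0417 and 0.0489 (limma). The call for Rxra ended without any 1 array (adjusted p of at least 0.0528), and that for Thrb without any array but fibrinogen 2 (at least 0.117).

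Among 16 measured genes that have been reported as KLF targets in other cells, 0 passed (limma). Without adjustment, 3 had a p under 0.05 with a positive and 2 with a negative difference (limma), against 8.12% and 7.46% of all genes. The 2 lower ones were Cdkn1c and Igfbp1, with log2 changes of -0.25 and -0.23 (adjusted p = 0.222 and 0.154, limma). The mean level of Igfbp1 lay below the receptor percentile. The median log2 change of the list was 0.07. Cdkn1a, the cell cycle inhibitor p21 that KLF4 and KLF6 activate, had levels of 11.15, 10.67 and 10.93 with fibrinogen and 10.67, 10.52 and 10.49 in controls, which met at 10.67. Its log2 change of 0.36 ± 0.12 (SE) did not pass (adjusted p = 0.182), and was 0.48 without fibrinogen 2, where it did (adjusted p = 0.0477, limma), as it did with array weights (adjusted p = 0.0394). Smad7, an inhibitor of TGF-beta signaling, had 6.44, 6.57 and 6.62 with fibrinogen and 6.23, 6.30 and 6.19 in controls. Its log2 change of 0.30 ± 0.08 (SE) did not pass (adjusted p = 0.0769, limma), but passed when genes under the 30th percentile or the receptor percentile were left out (adjusted p = 0.0445 and 0.0453).

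Immediate early genes are switched on soon after a stimulus, as Klf4 and Klf10 can be. Of 15 measured, 4 rose and 0 fell (limma), against 1.81% and 1.29% of all genes, and 10 were separated upward, against 10.7%. Jun and Jund were separated by only 0.02. Fos, Fosl1, Junb, Nr4a1 and Maff overlapped between the groups, with log2 changes of 0.11, 0.02, -0.01, 0.18 and -0.09. The median log2 change of the list was 0.18. Ier2 had 7.57, 7.93 and 7.67 with fibrinogen and 6.97, 6.93 and 7.06 in controls, a rise of 0.74 ± 0.10 (SE; adjusted p = 0.00640). Ier3, an inhibitor of cell death, rose by 0.71 ± 0.09 and the zinc finger factor gene Egr1 by 0.59 ± 0.09 (SE; adjusted p = 0.00436 and 0.0122), and Egr3, named after its values were seen, by 0.45 ± 0.10. The list held 2 genes that rose without control 2 or control 3, where Egr1 had adjusted p-values of 0.0603 and 0.0647, and Egr3 passed with all arrays or without fibrinogen 2 but in no other fit that left out 1 array (adjusted p of at least 0.118, limma).

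**Figure D4:**
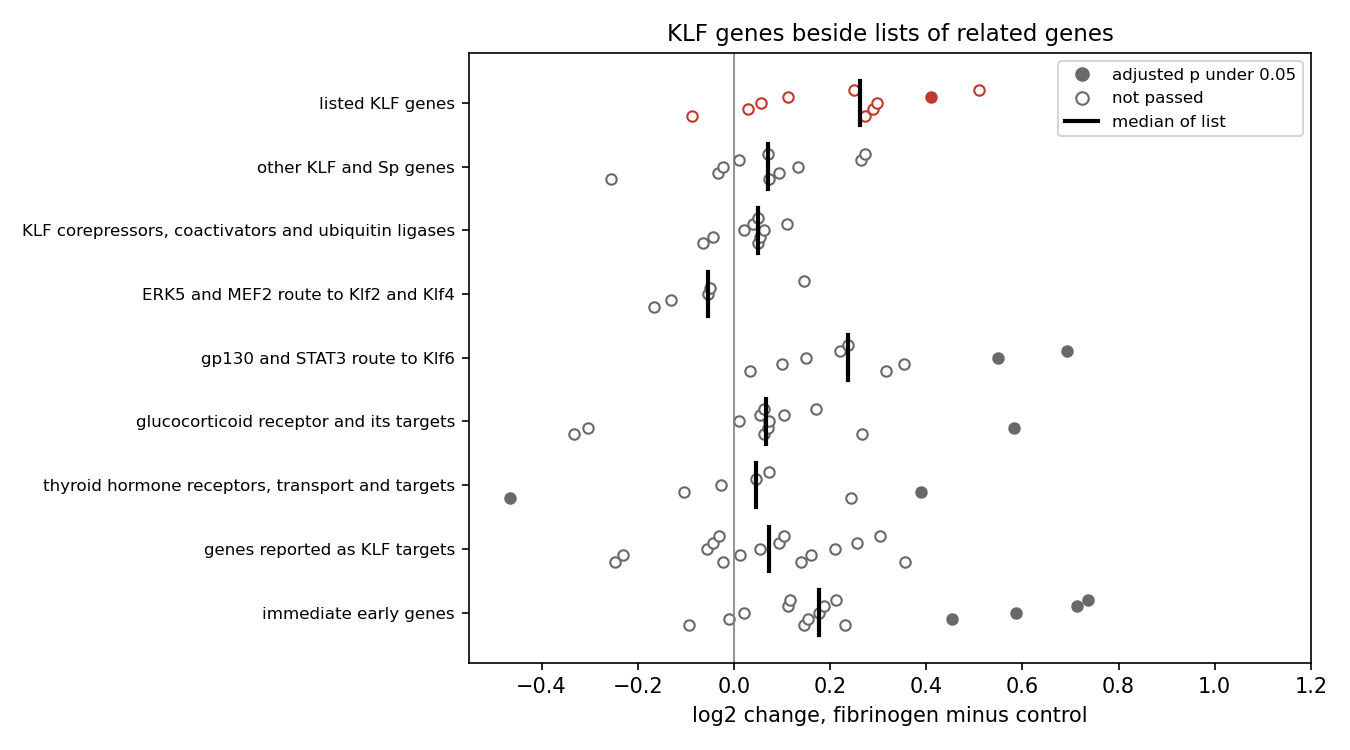
Log2 change, fibrinogen minus control, of each measured gene in the KLF list (red) and in 8 lists of related genes (grey), 1 row per list, where filled symbols mark an adjusted p under 0.05 and black lines the median of a list. The medians are 0.26 for the KLF genes, 0.24 for the gp130 and STAT3 route and 0.18 for immediate early genes, and between -0.05 and 0.07 for the other lists.

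The genes whose levels over the 6 arrays were most like those of Klf4, the member with the smallest p, were sought among 9939 genes above the receptor percentile. They were Scgb3a1, Naprt, Zfp46, Ltbp3 and Emb, with Pearson r of 0.999, 0.995, 0.991, 0.989 and 0.989 over 6 arrays. The arrays form separate groups for Klf4, so these values are a description only. Ltbp3, a protein that holds latent TGF-beta in the matrix, had 7.62, 7.68 and 7.66 with fibrinogen and 7.36, 7.51 and 7.48 in controls. Emb, a membrane glycoprotein that partners monocarboxylate transporters, was the 1 of the 5 that rose, by 0.59 ± 0.09 (SE; adjusted p = 0.0122, limma).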

How the data were processed

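RNA of 6 samples was measured on Affymetrix arrays, after cDNA amplification and biotin labelling with NuGEN kits per the labels' protocols. The deposited table holds log2 levels, 1 per probe set and array. RMA and limma appear without versions or roles, per the submitters' processing notes, so the deposited log2 levels were read as RMA output, a normalization that compresses differences of dim genes. The log2 scale was inferred from the values. The genome build is not given in the sources used here, and scanner files were not used here.

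Of 26312 probe sets, 1206 were blank. The platform's annotation gave 1 gene symbol to 14700 of the 25106 others, several symbols to 275 and no symbol to 10131; 14672 of the 14700 matched a RefSeq gene of GRCr8 by Entrez ID, and 0 symbols changed. The probe set with the highest mean per gene was used (480 genes had several). Arrays shared identical values for at most 3.64% of genes, so none was a copy.

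All 13949 genes were fitted with limma 3.58.1 in R 4.3.3 (fibrinogen minus control, two-sided, no covariates), with Benjamini-Hochberg adjustment over all genes at 0.05. No permutation test was run, since an exact one with 3 arrays a group has a smallest p of 0.1. The code was tested on simulated data. SDs are over the 3 arrays of a group, and SEs and 95% intervals are limma's. Lists carry counts and medians and no list test. The members and lists were chosen with earlier results of these data known, and the motifs with the promoter sequences in view. Named genes were all 10 KLF genes, other KLF and Sp genes that passed (or the 2 largest changes), the 3 largest passing changes of each further list (or the 2 largest), and the 5 genes most like the member with the smallest p. Sp1 and Egr3 were added after their values were seen. Alternatives were median centring, 2 filters on dim genes, the mean of probe sets, a variance trend, array weights, a replicate block and leaving out each array.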

Additional observations from a re-analysis of the deposited data

How the results depend on the processing

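The number of KLF genes that passed was 1 with all arrays and 0 after median centring, with the mean of probe sets per gene and with the replicate number as a block. It was 2 with a variance trend or with array weights (Klf4 and Klf10). It was 4 when genes under the 30th percentile or under the receptor percentile were left out (Klf4, Klf5, Klf7 and Klf10). Fewer genes were tested there and more passed in all, 596 of 9768 and 595 of 9949, against 432 of 13949 with no filter. When any 1 array was left out, 0 KLF genes passed. Over all genes, 432 passed in the main fit and 560 with a variance trend. The number was 659 with array weights, which gave fibrinogen 2 the lowest weight (0.318), and 151 to 436 when 1 array was left out. Of the 83 measured genes in the 8 lists of related genes, 9 passed, against 3.1% of all genes. When 1 array was left out, 4 to 11 of them did. The log2 change of Crebbp ran between -0.048 and 0.18 over the fits that left out 1 array, with -0.048 without fibrinogen 2, and the median of the KLF genes was 0.17 with array weights. No sign of a KLF gene's log2 change turned under any of the 13 alternatives. Replicate numbers pair no samples by the labels: deviations of same-numbered arrays from their group means had correlations of 0.0286, 0.0311 and 0.0252, each the highest for its number, which is a hint from the data only, and with the replicate block 315 genes passed in all and the calls for Klf4 and Rxra ended (adjusted p = 0.0604 and 0.0784, limma). With 3 arrays a group, the 95% intervals of -0.13 to 0.71 for Klf3 and -0.07 to 0.62 for Klf13 are too wide to tell a difference of the size seen for Klf10 from 0.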
